A study of Caenorhabditis elegans with 2 samples.

Results

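The 113 LIN-13 peaks described here lie in soft-masked sequence away from promoters, among 3013 nuclear peaks and 3040 peaks in all in the thresholded list. Soft-masked bases are those written in lower case in the ce11 (WBcel235) reference because they were recognised as repeated or of low complexity. A peak was taken when at least 50% of the window reaching 100 bp to each side of its summit was soft-masked and its summit lay outside every protein-coding promoter, counted from 1000 bp upstream to 200 bp downstream of a start. The summit also had to be over 500 bp from any tRNA, snoRNA or snRNA gene. Of the 3013 nuclear peaks, 477 passed the masking requirement, of which 361 lay in promoters and 3 more lay near such small RNA genes. The remaining 113 made up 3.75% of the nuclear list (95% exact interval 3.1 to 4.49).

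The data were ChIP-seq peak lists from whole L2 larvae of C. elegans, mixed male and female, in 1 group with 2 biological replicates. All animals were of strain OP49, which carries the mutation unc119(ed3) and the transgene wgIs49, an insertion of lin-13 joined to TY1, EGFP and FLAG tags together with unc119. Binding was therefore measured for the tagged protein, in all tissues of the larva at once, and no group without the transgene was compared. The control experiment that the labels point to was not analysed here. Where a signal is given below it is the authors' value per peak, and ranks run from 1 for the strongest entry of a list.

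LIN-13 is a protein with many zinc fingers and belongs to the synMuv B group, whose members restrain vulval fate and keep germline genes silent in somatic cells. It binds the heterochromatin protein HPL-2, and heterochromatin factors of C. elegans are known to occupy repeated elements as well as promoters. In this species repeats are concentrated on the arms of the autosomes, where histone H3 lysine 9 methylation is also found, while the centres are richer in conserved genes.

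The largest set of related windows comes first, because it held 19 of the 113 peaks. The sequences below are from the RefSeq ce11 genome, 5′ to 3′ on the strand given, around the 9-base word CGCAAACAC, for the 8 strongest of its peaks with the summit in an intron or between genes. Capitals mark CGCAAACAC and, where present, TACTGTAG, the other strand of CTACAGTA. Both words were picked after the sequences had been seen.
III:1616377-1616445, minus strand: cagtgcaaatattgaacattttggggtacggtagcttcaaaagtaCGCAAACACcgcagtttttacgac
III:1928919-1928987, plus strand: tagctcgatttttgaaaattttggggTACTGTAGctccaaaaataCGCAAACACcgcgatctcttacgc
II:456513-456581, minus strand: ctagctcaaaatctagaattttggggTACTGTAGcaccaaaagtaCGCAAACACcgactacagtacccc
III:1938810-1938878, minus strand: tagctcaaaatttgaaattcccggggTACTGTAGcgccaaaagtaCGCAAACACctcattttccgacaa
III:1616680-1616748, minus strand: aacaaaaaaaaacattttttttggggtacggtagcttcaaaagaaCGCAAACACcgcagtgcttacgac
III:2148238-2148306, minus strand: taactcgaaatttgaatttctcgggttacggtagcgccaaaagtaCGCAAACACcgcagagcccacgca
III:1931717-1931785, plus strand: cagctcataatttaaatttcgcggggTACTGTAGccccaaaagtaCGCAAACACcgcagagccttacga
II:463134-463202, minus strand: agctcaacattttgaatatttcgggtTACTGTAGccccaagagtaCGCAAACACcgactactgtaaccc
The sequences were cut around CGCAAACAC, so all 8 hold it by choice, and the bases beside it are much alike. To its left, 5 of the 8 also hold TACTGTAG, and the others hold the close variant TACGGTAG at the same position.

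Other words recurred outside the largest family and are shown because they lay near the summits, in peaks that include some of the strongest. A few bases beside each word are shared as well. The word GAGAGGACT, in capitals, was present in 3 peaks, of which 2 are shown.
II:8684087-8684135, plus strand: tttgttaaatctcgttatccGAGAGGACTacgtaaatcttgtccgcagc
IV:15526639-15526687, plus strand: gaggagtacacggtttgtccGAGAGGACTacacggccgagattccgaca
The word CGTGGCGAG, in capitals, was present in 4 peaks, of which 3 are shown.
V:1471743-1471791, minus strand: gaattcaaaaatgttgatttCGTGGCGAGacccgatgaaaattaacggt
III:2482365-2482413, plus strand: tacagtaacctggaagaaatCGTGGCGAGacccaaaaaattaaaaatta
III:8899879-8899927, minus strand: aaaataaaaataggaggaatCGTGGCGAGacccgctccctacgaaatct
The word GAGACGCAG, in capitals, was present in 7 peaks, of which 4 are shown.
III:1926569-1926617, minus strand: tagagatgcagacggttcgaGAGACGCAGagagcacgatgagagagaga
V:4143303-4143351, plus strand: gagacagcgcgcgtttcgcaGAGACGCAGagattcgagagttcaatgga
III:3065976-3066024, plus strand: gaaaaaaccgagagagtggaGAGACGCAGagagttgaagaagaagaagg
III:3271784-3271832, minus strand: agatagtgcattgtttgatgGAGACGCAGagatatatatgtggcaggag
These 3 words were also picked after the sequences had been seen. Each lay within 50 bp of the summit in every peak that held it. That nearness was a reason for showing them and is no separate result. CGCAAACAC lay that near in 16 of 22 peaks, CTACAGTA in 12 of 15 and GAGAGAGA in 14 of 18.

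Simple repeats formed another kind of window. The first sequence below is a run of alternating C and T, with the run in capitals. The second is from an intron of mac-1 and was called as a tandem repeat with a period of 18 bases. Its capitals mark alternate blocks of 18 bases counted from the first base shown. Some copies of the repeated unit are longer than 18 bases, so the blocks do not follow the copies.
V:979830-979930, plus strand: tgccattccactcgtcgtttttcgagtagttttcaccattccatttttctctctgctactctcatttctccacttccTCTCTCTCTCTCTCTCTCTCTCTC
II:13315793-13315893, plus strand: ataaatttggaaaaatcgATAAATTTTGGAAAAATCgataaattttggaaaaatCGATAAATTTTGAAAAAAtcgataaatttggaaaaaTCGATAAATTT

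The last 2 sequences show the full window around the summit as the reference writes it, so that capitals are unmasked bases and lower case is soft-masked. They are 2 of the strongest peaks with less than 25% of the central 41 bp masked, and the summit is the middle base.
III:1926515-1926715, plus strand: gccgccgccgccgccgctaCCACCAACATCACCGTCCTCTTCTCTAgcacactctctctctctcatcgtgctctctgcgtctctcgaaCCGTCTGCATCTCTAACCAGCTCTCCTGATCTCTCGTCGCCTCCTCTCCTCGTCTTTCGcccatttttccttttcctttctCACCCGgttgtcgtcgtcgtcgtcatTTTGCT
V:1471626-1471826, plus strand: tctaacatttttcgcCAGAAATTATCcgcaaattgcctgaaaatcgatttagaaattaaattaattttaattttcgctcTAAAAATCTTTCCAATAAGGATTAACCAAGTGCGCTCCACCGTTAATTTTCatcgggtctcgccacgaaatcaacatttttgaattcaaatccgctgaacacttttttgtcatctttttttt
In each, unmasked sequence sits at or beside the centre with masked sequence on both sides, which follows largely from how the 2 were chosen.

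Across the 113 peaks, masking was lower at the summit than beside it. The summit base was soft-masked in 57 of 113 peaks (50.4%). The share rose to 69.9% at 70 bp towards lower coordinates and to 75.2% at 60 bp towards higher coordinates. Masking therefore formed 2 shoulders with a dip between them. The 361 soft-masked promoter peaks had the same shape, with 37.4% at the summit base. In the 7367 entries of the pooled list that met the same rule but were not thresholded, masking was instead highest at the summit, at 74.6% (73.6 to 75.6). The rule sets only a lower limit on the total over the window. The median total was 60.7% in the members and 67.2% in the entries not thresholded. A window with an unmasked summit passes only with masked sequence beside it, so the rule also bears on the shape. All nuclear thresholded peaks dipped as well, with 19.4% at the summit base. Their share was highest at 110 bp towards lower coordinates (37.4%) and at 120 bp towards higher coordinates (37.3%). These shares are descriptions over peaks, and no test of the difference was made, since peaks of one list are not replicates.

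**Figure D1:**
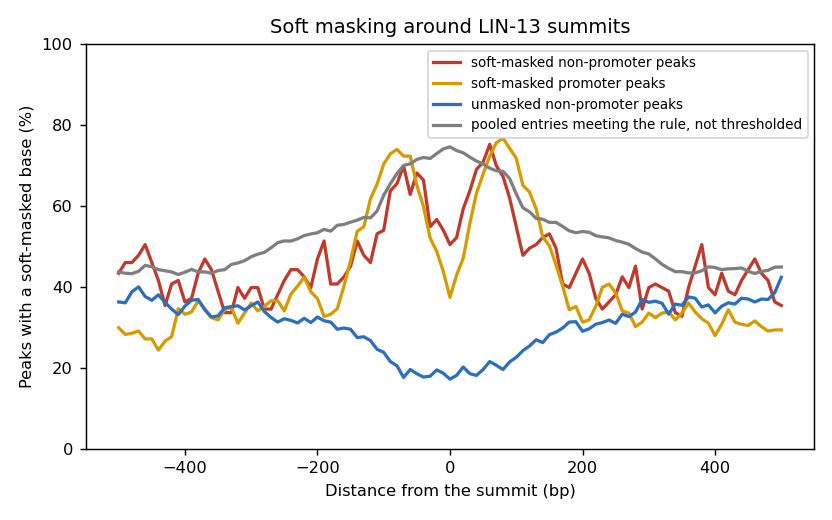
Percent of peaks whose base is soft-masked (vertical axis) against distance from the summit in bp (horizontal axis), for the 113 soft-masked non-promoter peaks, 361 soft-masked promoter peaks, 965 unmasked non-promoter peaks and 7367 pooled entries that met the rule without being thresholded. The first pair of lines dips at the summit, to 50.4% and 37.4%. The line of unmasked non-promoter peaks is also lowest there, at 17.2%. The line of the entries not thresholded is at its highest there, 74.6%.

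Of the 113 peaks, 29 had less than 25% of the central 41 bp masked. Their median rank in the pooled list was 1954, and the median GC content of that centre was 46.3%. Another 36 peaks had 75% or more of the centre masked, with a median rank of 2310.5 and a median GC content of 30.5%. The centres that were masked were thus poorer in G and C, and their peaks stood lower in the list. Among the stronger 50% of the nuclear list were 11 of the 29 and 7 of the 36. Over the whole window the 113 peaks had a median GC content of 34.3%, between 26.9% in the entries not thresholded and 44.8% in the 965 unmasked non-promoter peaks. The median masked share was 60.7%, with a range of 50.75% to 100%. Near the threshold, 25 peaks had 50 to 55% masked and a median rank of 2251, and 39 peaks outside promoters with 45 to 50% masked had a median rank of 2056.

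The peaks stood low within the thresholded list. Their signal ran from 55.3 to 374.1, and their pooled ranks ran from 115 to 3019 with a median of 2100, against 1871 for unmasked non-promoter peaks and 1377 for soft-masked promoter peaks. Few entries of this kind reached the thresholded list. Of 7480 pooled entries that met the rule, 113 were thresholded (1.51%, 1.25 to 1.81), against 10.1% of the 29973 nuclear pooled entries. The share was 6.91% (6.49 to 7.34) for pooled non-promoter entries with less than 50% masked.

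All 113 peaks overlapped an entry of replicate 1 and 112 overlapped an entry of replicate 2. Those lists hold 30000 entries each and include background, so the position in the list says more than presence. Among the strongest 3040 entries of replicate 1 were 80 of the 113 peaks (70.8%, 61.5 to 79), where 83.2% of all nuclear thresholded peaks were found. For replicate 2 the count was 85 (75.2%, 66.2 to 82.9), where the list as a whole gave 87%. Both replicates held 58 of the 113 among their strongest (51.3%, 41.7 to 60.8), against 72.2% of all nuclear thresholded peaks. The members were thus below the whole list on each of these shares. Because both replicates went into the thresholded list, none of these shares is independent of how the peaks were chosen. Spearman's rho between the replicates' signals was 0.28 over 112 peaks, against 0.53 over 960 unmasked non-promoter peaks, 0.75 over 355 soft-masked promoter peaks and 0.67 over 2978 nuclear peaks. All of these points come from the same pair of libraries, and the sets cover different ranges of signal.

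The replicates ordered the largest family and the single-copy members in opposite directions. In the largest family, 15 of the 18 peaks found in each replicate's list ranked higher in replicate 1. These include all 7 family peaks in the gene pqn-41, whose neighbouring, similar windows are not independent observations. Of the 74 peaks that aligned to no other place, 23 did (31.1%), against 49.5% of all nuclear peaks. The first group had 18 of 19 peaks among the strongest entries of replicate 1 and 9 of 19 among those of replicate 2. The second had 45 of 74 and 59 of 74. Between these, 5 of 8 other members with 10 or more other places ranked higher in replicate 1, and 8 of 12 members with 1 to 9 did. The 46 peaks outside the members that aligned to 10 or more other places and had both ranks showed no such lean, with 22 higher in replicate 1 (47.8%). With 1 library per replicate, library, culture and handling of reads that map to several places cannot be told apart, and none was tested.

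**Figure D2:**
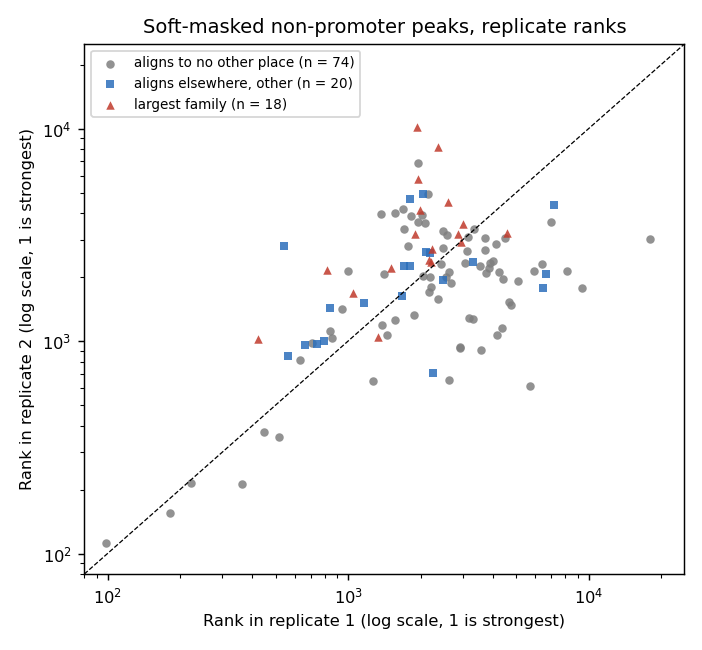
Rank in replicate 2 against rank in replicate 1 for the 112 soft-masked non-promoter peaks that have a rank in each, on log axes, with equal ranks on the dashed line. Of the 18 peaks of the largest family (triangles), 15 lie above the line, ranked higher in replicate 1, as do 23 of the 74 peaks that align nowhere else (circles).

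Repeated sequence was more frequent in these windows than in the other thresholded sets. Against pooled entries of the same kind, alignment to other places was about as frequent and tandem repeats were more frequent. Inverted repeats were not counted in those entries. The window aligned to 10 or more other nuclear places in 27 of 113 peaks (23.9%, 16.4 to 32.8). The share was 1.97% (1.19 to 3.06) of unmasked non-promoter peaks and 3.88% (2.14 to 6.42) of soft-masked promoter peaks. It was 19.5% (18.6 to 20.4) of the pooled entries that met the rule without being thresholded, a value inside the members' interval. At least 1 other place was found for 34.5% of members and for 37.5% of those entries. A further 12 peaks aligned to 1 to 9 other places. The other 74 peaks aligned nowhere else over at least 50% of their window, so most soft-masked members were single-copy by this measure. A tandem repeat of at least 50 bp was found in 10 of 113 windows (8.85%, 4.33 to 15.7), against 2.18% of unmasked non-promoter peaks and 2.17% of the entries not thresholded. An inverted repeat with arms of at least 30 bp lay within 500 bp of 15 of 113 summits (13.3%, 7.62 to 20.9), against 3.21% of unmasked non-promoter peaks. Since the rule required masked sequence, a higher share of repeats than in unmasked sets follows in part from the choice of members.

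**Figure D3:**
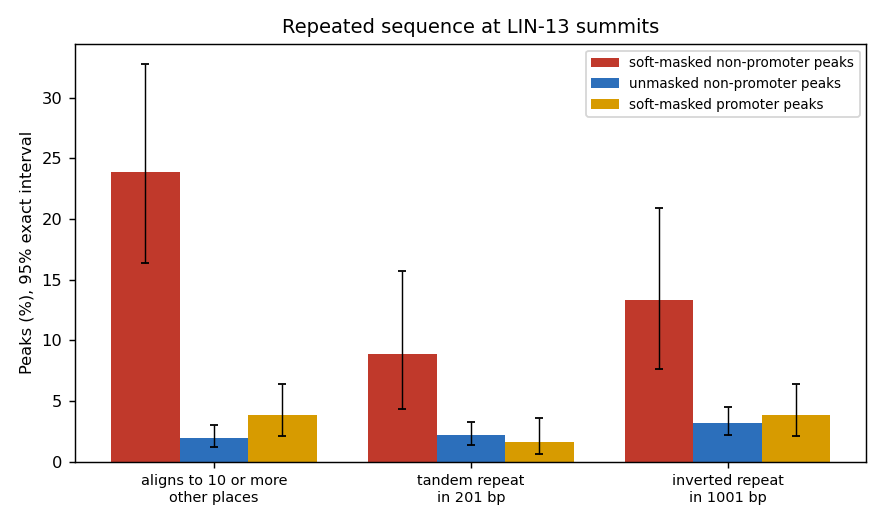
Percent of peaks (vertical axis, bars from 0, with 95% exact binomial intervals over peaks) whose window aligns to 10 or more other places, holds a tandem repeat or lies by an inverted repeat, for 113 soft-masked non-promoter, 965 unmasked non-promoter and 361 soft-masked promoter peaks. The soft-masked non-promoter bars stand at 23.9%, 8.85% and 13.3%.

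The 19 peaks of the largest family were linked by 41 pairwise alignments of 80 to 155 bp, with identities of 75 to 87.2% and a median of 79.2%. All 19 held CGCAAACAC and 11 also held CTACAGTA. Introns held 14 of the summits and intergenic sequence held 4. The remaining one, III:1519949-1520298, lay in an untranslated or non-coding exon of snf-6, which encodes an acetylcholine transporter. Each window aligned to between 10 and 318 other places, with a median of 146. The family was weak as well, with a best pooled rank of 703 and a median of 2271. All 19 lay on autosome arms, 15 of them on chromosome III.

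The strongest of the family was III:1616278-1616500, an intergenic peak 2424 bp upstream of Y22D7AL.9, a tetratricopeptide repeat gene. It ranked 703 in the pooled list, 424 in replicate 1 and 1021 in replicate 2. A neighbouring peak, III:1616646-1616818, ranked 1704 in the pooled list and 1694 in replicate 1, and it was the 1 member with no entry in replicate 2. The pair of peaks thus differed in whether the replicates agreed on them. The peak II:456320-456669, in an intron of gvd-1, ranked 1243 in the pooled list, 817 in replicate 1 and 2153 in replicate 2. The widest gap in the family was at III:984740-985089, in an intron of tbc-10, with rank 1928 in replicate 1 and 10206 in replicate 2.

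The gene pqn-41, which encodes a polyglutamine-repeat protein, held 8 of the 113 peaks, more than any other gene, and 7 of the 8 were of the largest family. The gene runs over III:1905958-1939570 on the plus strand, 33613 bp long, and the 8 summits span 12177 bp of its introns. In all, 13 thresholded peaks and 31 pooled entries had their summit in the gene. The strongest member there, III:1926531-1926702, is outside the family. It had a signal of 259.6 and ranked 232 in the pooled list, 222 in replicate 1 and 215 in replicate 2, so the replicates placed it close together. The 7 family peaks were weaker, with signals of 55.5 to 104.8. Their ranks ran from 1052 to 2997 in replicate 1 and from 1676 to 8156 in replicate 2. The strongest of the 7, III:1928791-1929140, ranked 1230 in the pooled list, 1052 in replicate 1 and 1676 in replicate 2. Adjacent family summits in the gene were 640 to 6980 bp apart.

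**Figure D4:**
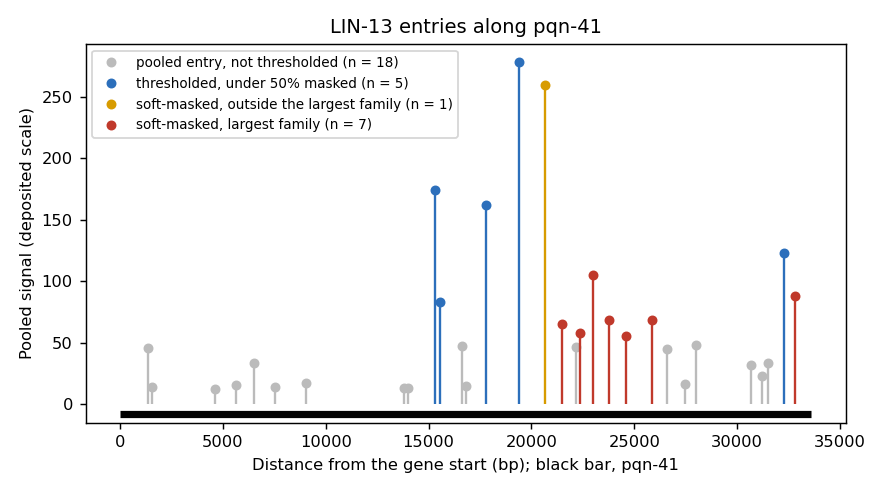
Pooled signal on the deposited scale (vertical axis) of the 31 pooled entries in pqn-41 against distance from the gene's start in bp (horizontal axis), with the gene as a black bar. The 7 largest-family peaks have signals of 55.5 to 104.8, below the other soft-masked peak at 259.6.

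Places in the genome that resemble the family are far more numerous than its peaks. Alignments of the 19 windows merged into 791 places, of which 331 (41.8%) were on chromosome III, 216 on II and 45 on X. On the autosomes 745 of 746 places were on the arms (99.9%). A thresholded summit lay within 100 bp of 21 places (2.65%) and a pooled summit within 100 bp of 280 (35.4%). On chromosome III the thresholded share was 5.14%, on II 1.39%, and on IV, V and X no place had one. Within pqn-41, 8 of 31 such places had a thresholded summit (25.8%), against 13 of 760 elsewhere (1.71%). The family windows were themselves used to find the places, so these shares describe where the peaks fell and carry no test.

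**Figure D5:**
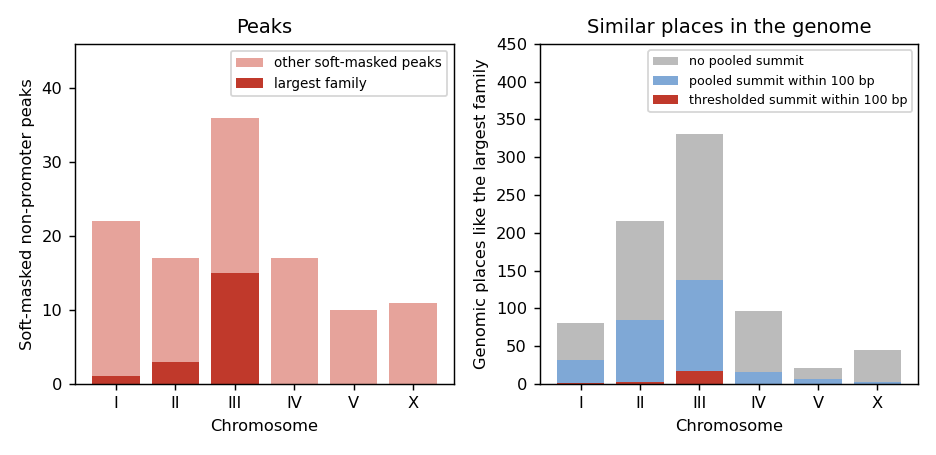
Left, number of soft-masked non-promoter peaks per chromosome, with those of the largest family in dark red; right, number of genomic places similar to that family per chromosome, with those within 100 bp of a pooled or thresholded summit. Chromosome III holds 36 peaks, 15 of them in the family, and 331 of the 791 places.

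Per megabase the 113 peaks were densest on chromosome III, with 36 peaks and 2.61 per Mb, and sparsest on V, with 10 peaks and 0.478 per Mb. All nuclear peaks were also densest on III, at 44.0 per Mb, and sparsest on V, at 20.1 per Mb. Of the 113, chromosome I held 22, II and IV held 17 each and X held 11. The share on III was 31.9% (23.4 to 41.3), against 20.1% of all nuclear peaks. Outside the largest family the share on III was 21 of 94 (22.3%). The share on X was 9.73% (4.96 to 16.8), against 16.6% of all nuclear peaks, 20.5% of unmasked non-promoter peaks and 13.1% of pooled entries that met the rule without being thresholded. The interval for X takes in both the first and the last of these values. Of the 102 autosomal peaks, 77 lay on the arms (75.5%, 66.0 to 83.5), taken as the outer 30% at each end. The share was 51.4% (47.8 to 55) for unmasked non-promoter peaks and 75.1% (74.1 to 76.2) for pooled entries that met the rule without being thresholded. The arm share was therefore close to that of all entries of the same sequence type.

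The summit lay in an intron in 54 of 113 peaks (47.8%, 38.3 to 57.4) and between genes in 45 (39.8%, 30.7 to 49.5). Untranslated or non-coding exons of protein-coding genes held 10, coding exons 2 and non-coding genes 2. Among unmasked non-promoter peaks 38.5% were in introns, and among the entries not thresholded 62.6% were. The introns had a median length of 1160 bp, with a range of 220 to 17902 bp, against 3070.5 bp for unmasked non-promoter peaks. The nearest protein-coding start was a median of 2325 bp away, and 25 of the 113 summits were over 5000 bp from any.

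Several of the strongest peaks were single-copy sequence. The strongest, I:16882-17137, lay between genes, 5507 bp downstream of the start of nlp-40, a neuropeptide-like gene. It ranked 115 in the pooled list, 99 in replicate 1 and 112 in replicate 2. The next, X:2364788-2365010, lay 1065 bp downstream of the start of T24D8.6 and ranked 179, 181 and 155 in the same order. Both were placed alike by the replicates. The peak V:1471666-1471821, 3360 bp upstream of F53E2.2, ranked 390, 515 and 355 and is the strongest with CGTGGCGAG. None of these 3 windows, nor the pqn-41 peak at rank 232, aligned to another place.

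The next ranks included a simple repeat and an exon of a transposase-like gene. The peak I:12736627-12736976, in an intron of vps-25, a subunit of the membrane-sorting complex ESCRT-II, ranked 403, 447 and 373 and holds a repeat with a period of 2 bases over 57 bp. The peak V:4143129-4143478, 1201 bp upstream of Y45G5AL.1, ranked 687, 631 and 811 and holds GAGACGCAG. The peak I:11897257-11897403 ranked 688, 564 and 849. It lies in an untranslated or non-coding exon of Y47H9C.12, whose product is annotated with a Mos1 transposase helix-turn-helix domain, and it is the strongest of that location class. The tenth in order, I:2639814-2640163, near F40E3.3, ranked 775 in the pooled list. The replicate entries with the nearest summit ranked 540 and 2797, while the strongest overlapping entries ranked 116 and 136, and another thresholded summit lay 204 bp away. How far apart its replicates stood thus depends on which entry is matched.

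The strongest peak on chromosome II, II:10388162-10388328, lay 2910 bp downstream of the start of ztf-27, a zinc-finger gene, and ranked 784, 707 and 981. On chromosome IV the strongest was IV:16415630-16415979, in an intron of Y65A5A.2, with ranks of 1125, 2259 and 705. In a coding exon the stronger of 2 peaks was II:9935843-9936192 in C05C10.3, with ranks of 2533, 3753 and 2095. In a non-coding gene the stronger of 2 was IV:3134984-3135333 in Y67D8C.16, with ranks of 1987, 2056 and 2016. All 4 peaks in coding exons and non-coding genes thus stood in the weaker part of the list.

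The 10 tandem repeats had periods of 2 bases in 5 windows and of 3, 4, 6, 15 and 18 bases in 1 each. The CT run printed above is from V:979705-980054, between genes, which ranked 857 in the pooled list, 792 in replicate 1 and 1004 in replicate 2 and aligned to 28 other places. The repeat called with a period of 18 bases in the mac-1 intron, II:13315668-13316017, covers 198 bp and aligned to 254 other places. It ranked 2467, 2189 and 2607 and had the lowest GC content of the 113, 19.4%. It was fully masked, as was V:1197268-1197617, which ranked 1575, 1676 and 1632 and aligned to 84 other places. Both fully masked peaks were thus placed at similar ranks by the replicates. The inverted repeats included arms of 156 bp at III:2482202-2482551, in an intron of smg-6, a gene of nonsense-mediated mRNA decay, with ranks of 974, 843 and 1426. Arms of 194 bp lay at III:1928151-1928500 in pqn-41, with ranks of 2819, 2370 and 8156.

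Words in the windows were searched on both strands, and some can overlap, as GAGAGAGA and GAGACGCAG do at their ends. CGCAAACAC was in 22 of 113 windows (19.5%), 19 of them in the largest family, against 1.45% of unmasked non-promoter peaks, 9.42% of soft-masked promoter peaks and 2.14% of the entries not thresholded. The 2 overlapping 8-base parts of CGCAAACAC headed a ranking by excess over the entries not thresholded, within 50 bp of the summit. Its contrast with those entries is therefore no separate support. GAGACGCAG was less frequent here, in 7 windows (6.19%), than in unmasked non-promoter peaks (19.7%). GAGAGAGA was in 18 windows (15.9%), against 23.7% of unmasked non-promoter peaks and 1.09% of the entries not thresholded. GAGAGGACT was in 3 windows (2.65%) and CGTGGCGAG in 4 (3.54%), and neither was in any of the 965 unmasked non-promoter windows. The words were picked from the members' sequences, so this contrast is no separate support. Both words were also in promoter peaks: soft-masked promoter windows held GAGAGGACT in 4 cases (1.11%) and CGTGGCGAG in 11 (3.05%), and all nuclear peaks held them in 19 and 32. CGCAAACAC was thus rarer in unmasked peaks, and GAGAGAGA in the entries not thresholded. In the genome CGCAAACAC occurs 1864 times, 70.1% of them masked, and 124 (6.65%) lay within 100 bp of a thresholded summit. GAGAGGACT occurs 337 times, with 6.23% masked and 19 (5.64%) that near. CTACAGTA, the other word marked in the largest family, occurs 22271 times, with 77.7% masked and 51 (0.229%) that near. The share that near was 10.4% for GAGACGCAG, with 65.6% masked, and 1.46% for CGTGGCGAG, with 81.0% masked.

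CACACACA was in 9 windows (7.96%), against 9.53% of unmasked non-promoter peaks, 1.11% of soft-masked promoter peaks and 0.76% of the entries not thresholded. In the same order of sets, 10 A or 10 T in a row was in 8 windows (7.08%), against 2.59%, 7.76% and 16.1%. The palindrome CACGTG was in 4 windows (3.54%), against 9.64%, 3.32% and 1.74%. Sites of the E2F type (TTTCCCGC, TTTGGCGC, TTTCGCGC or TTTGCCGC) were in 8 windows (7.08%), close to the 7.04% of all nuclear peaks. The telomere repeat TTAGGC, searched as a pair in a row, was in 0 of 113 windows, which allows a share of up to 3.21% by the exact interval. No match says only that these letters were not in this window.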

How the data were processed

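ChIP-seq against tagged LIN-13 was deposited as peak lists for 2 biological replicates of 1 group, with library fragments size-selected per the labels. Per the deposited file listings, lists of 30000 entries were made by the authors for each replicate and for both together, and a thresholded list was derived from these by the irreproducible discovery rate step. The authors' signal value per entry is on a scale not given in the sources used here and was used for ranks, to compare peaks within the pooled list and for a rank correlation. The deposited −log10 q value was not used for selection. For the aligner, the peak caller, the threshold and the treatment of reads that map to several places, the sources used here give nothing. Depth is unknown, since the lists hold no read counts. The lists on the older build ce10 were not used.

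Masking and sequences were read from the RefSeq WBcel235 (ce11) genome and genes from Ensembl release 115. Windows were aligned with BLAST 2.17.0 (word size 11, e-value 1e-05, no low-complexity filter). Another place was an alignment over at least 50% of a window, and a family linked windows aligned over 80 bp at 75% identity. A tandem repeat was a run of 50 bp at 80% identity with a period of up to 60 bp. A replicate's rank is that of the overlapping entry with the nearest summit, while overlap with the strongest entries counted any entry sharing 1 bp. Exact 95% binomial intervals are over peaks and cover counting error only. Python 3.11.15, pandas 2.3.3 and scipy 1.17.1 were used, and the steps were tested on simulated data. No test across samples was possible with 1 group.

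Named peaks are the 10 strongest, the strongest on each chromosome and in each location class, and the strongest of the largest family; others were chosen after their values were seen. One peak that this rule names is not reported here. The peaks, gene lists and measures were chosen with earlier results of these data known. Alternatives covered the signal threshold, masked share, window, promoter, overlap, alignment and replicate settings.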

Additional observations from a re-analysis of the deposited data

How the results depend on the processing

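Of 139 alternative values over 13 results, 35 moved beyond the margin set for each and the others did not; the cause was not tested beyond what each setting does by construction. In the stronger 50% of the nuclear list there were 31 peaks, with 96.8% in the strongest entries of replicate 1, 100% in those of replicate 2 and 96.8% in both. There the median rank was 963, the tandem share 19.4%, the share with 10 or more other places 16.1%, the family share 0.0% when families were rebuilt among those peaks (4 of the 31 are of the largest family) and the thresholded share of pooled entries 0.414%. With 80% or more masked, 9 peaks remained, with 100% and 55.6% in the strongest entries of replicates 1 and 2. Of these 66.7% were intronic, 0.0% on X, 100% on arms, 22.2% tandem and 55.6% repeated elsewhere, and 0.458% of pooled entries were thresholded. With 25% or more masked, 430 peaks met the rule, with 60.9% in both replicates, 17.7% on X, 65.3% on arms, 8.84% repeated elsewhere, 10.5% in families and 2.89% of pooled entries thresholded. Masking over 50 bp on each side gave 65.9% on arms. The tandem share was 3.54% at 90% identity, the repeated share 15% with 80% of the window aligned, and the family share 7.08% at 85% identity over 120 bp. Without the largest family, an alternative chosen after seeing the data, the repeated share was 8.51%.

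With the strongest entries of 1 replicate in place of the thresholded list, the number of peaks was 120 to 128, the intron share 45.3 to 52.5%, the intergenic share 40 to 40.6%, X 10 to 11.7% and the arm share 63.7 to 75.9%. The tandem share was 6.67 to 8.59%, the repeated share 19.5 to 31.7%, the family share 14.1 to 28.3% and the thresholded share 1.62 to 1.96%. The lower arm, repeated and family counts came without replicate 1. Without replicate 1, 46.9% were among its strongest entries, and without replicate 2, 56.7% were among that one's. Overlap of a list with its own replicate and the pooled rank were not computed for these lists. No paired analysis was possible because there is 1 group. Depth and the treatment of reads mapping to several places limit what the ranks of repeated windows show.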

Other observations

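Each of the 113 peaks was given to the gene holding its summit, or else to the nearest start, and 5 genes had more than 1 peak: pqn-41, sma-9, K08F11.1, Y22D7AL.9 and Y22D7AL.10. None of 20 heterochromatin and small RNA pathway genes, 20 neuron genes, 13 muscle genes or 156 cuticle collagen genes had such a peak. Among 965 unmasked non-promoter peaks, 0 were at the heterochromatin list, 10 (1.04%) at neuron genes, 1 (0.104%) at a muscle gene and 5 (0.518%) at collagen genes. At such shares 113 peaks would hold few or none, so the zeros are near that background. Of 78 ribosomal protein genes, rpl-31 had 1 peak, of the largest family, and unmasked peaks were at 3, rpl-31 among them. A peak with CGTGGCGAG, chosen after its values were seen, lay at III:8899737-8900086, 4219 bp downstream of the start of lin-9, a synMuv B gene of the DREAM complex, and ranked 1872 in the pooled list, 1413 in replicate 1 and 2058 in replicate 2.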
